A study of Mus musculus with 6 samples.

Results

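The trefoil factors Tff1, Tff2 and Tff3 were followed in medullary epithelial cells of the mouse thymus by taking every array probe that the platform annotation names for them. These are 3 of 19406 named genes on the arrays, and they had 3 of the 46619 probes, 1 per gene: 3850452 for Tff1, 940156 for Tff2 and 1580129 for Tff3. The series compared MHCIIhi medullary cells (mTECs) of C57Bl/6 mice, 3 wild-type samples (genotype wt) with 3 samples lacking Aire (genotype ako), on single-colour Illumina bead arrays. Wild-type samples 1 and 3 and knockout sample 2 were female and the others male. The sources used here do not give age, the number of mice per sample or the form of the Aire allele. The p-values therefore describe only the spread between these samples, which may be technical.

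Trefoil factors are small secreted peptides whose cysteines are bridged into clover-like loops, and they are packed with mucins into the mucus that covers epithelia of the digestive tract. Tff1 is made by the surface mucous cells of the stomach, where Muc5ac is the mucin. Tff2 is made by the mucous neck and gland cells beside Muc6, and Tff3 by intestinal goblet cells beside Muc2. They protect mucosa and help epithelium to close over injury. In the thymus, mTECs display such tissue-restricted proteins to developing T cells, and Aire is the regulator best known for this ectopic expression. In a bulk sample, fewer cells making a transcript and less transcript per cell cannot be told apart.

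Tests covered 19420 probes, those above a background bound of about 6.81 log2 units on at least 3 of the 6 arrays. The bound lay 3 SD above the most common value on each array. Aire itself read 13.40 to 13.66 log2 units in wild type and 10.01 to 10.36 in knockout samples on its brighter probe. Both of its probes fell, but both stayed above background on all 3 knockout arrays. In the genotype comparison 3446 probes (17.7%) were called lower and 4022 (20.7%) higher at an adjusted p of 0.05, or 38.5% in either direction. Cyclic loess between arrays gave 3988 lower and 2641 higher, and scaling to housekeeping genes 2001 and 4983, so the balance of directions depends on the scaling. Before that scaling the 22 housekeeping genes had a median change of only 0.0073. In the scaled fit Tff1, Tff2 and Tff3 all had the same SE of 0.20, so its calls are read with caution. Of 15 mTEC markers with a named probe, 13 lay above background on all 6 arrays, Ctsl on none, and the general epithelial marker Epcam has no named probe. Of the 14 tested, Aire, Krt5 (−1.83) and Krt14 (−0.70) fell and H2-Aa (+0.45) and Tnfrsf11a (+0.51) rose. The summed antilog level of the 15 was 91996 to 106433 in wild type and 86355 to 87851 in knockout samples. Aire is 1 of the 15, so this sum contains its own fall, and a sum without Aire was not taken. Of 11 dendritic cell and macrophage markers 7 were above background on no array (Itgax, Flt3 and Xcr1 among them), whereas Lyz2 was bright on all 6 without passing (+0.20), Zbtb46 rose by 0.59 and Adgre1 fell. Their sum, set mostly by Lyz2, was 6822 to 8760 in wild type and 8698 to 9752 in knockout samples. The mean log2 value of these 11 was 7.30 to 7.37 and 7.32 to 7.36, so by that measure the groups overlapped. The B cell genes Ms4a1 and Pax5 were above background on no array, Cd79b was bright on all 6 and rose by 0.34, and Cd79a fell. The sum of these 4, set mostly by Cd79b, was 1702 to 1814 against 2071 to 2108. Their mean log2 value was 7.52 to 7.69 in wild type and 7.42 to 7.53 in knockout samples, so it did not rise. The thymocyte genes Rag1, Rag2 and Themis were above background on no array, whereas 6 of 11 thymocyte markers were above it on all 6. Thy1 averaged 11.83 log2 units in wild type and 11.54 in knockout samples, and Cd8b1 10.58 and 10.27. Of 7 tested thymocyte markers Cd3g and Cd3d fell, and the summed antilog level of all 11 was 6094 to 8915 in wild type and 5433 to 6665 in knockout samples. Of 7 tested fibroblast and endothelial markers 2 fell and 2 rose. The sum of all 8, set mostly by Dcn, was 3215 to 4381 against 6555 to 6843. The mean log2 value of the 8 was 7.72 to 8.11 in wild type and 7.87 to 8.09 in knockout samples, so by that measure the groups overlapped. Dcn rose by 1.17 log2 units and Kdr by 0.35, Col1a1 changed by −1.31 and Cdh5 by −0.45, and Pdgfra and Pdgfrb did not pass. The brighter Pecam1 probe (+0.48) did not pass either, but a second Pecam1 probe rose by 0.57 (limma adjusted p = 0.0031). Col1a1 and Cdh5 were each above background on 1 of 3 knockout arrays. The part of these shifts in the trefoil results was not tested.

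Each trefoil factor was much lower in Aire-deficient mTECs, Tff1 by 37.4-fold, Tff3 by at least 14.0-fold and Tff2 by 6.14-fold. All 3 were called lower, against 17.7% of all tested probes, and on each of the 3 probes every wild-type array lay above every knockout array, as it did for 21% of tested probes. Tff3 passed the filter only through wild type, so it could only be lower. Values are the authors' normalized log2 values, and folds are antilogs of the change in group mean. Whether the transform was a plain log2 is not stated, so folds hold on the deposited scale, and levels of different probes are not on a common scale.

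Tff1 read 12.68, 12.61 and 12.64 log2 units in wild-type samples 1 to 3, and 7.65, 7.28 and 7.33 in knockout samples 1 to 3. The wild-type values differed by less than 0.1 log2 units, and the knockout values stayed above the background bound on all 3 arrays. The group means were 12.64 ± 0.032 (SD, n = 3) and 7.42 ± 0.20 (SD, n = 3). The log2 change was −5.23 (SE 0.12, 95% interval −5.49 to −4.96, limma adjusted p = 4.16e-09). Among 11740 tested named genes, 2 fell by this much or more on the deposited values, Tff1 itself included (0.0170%). Genes not above background in knockout samples, such as Mpo (−5.19), Dcpp1 (−5.17) and Tff3, have falls with only a lower bound. The true rank of Tff1 is therefore not known.

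Tff2 read 11.41, 11.66 and 11.56 log2 units in wild-type samples 1 to 3, and 8.98, 9.03 and 8.77 in knockout samples 1 to 3. All 3 knockout samples were thus well below the wild-type samples but about 2 log2 units above the background bound. The group means were 11.54 ± 0.13 and 8.93 ± 0.14 (SD, n = 3 each). The log2 change was −2.62 (SE 0.11, 95% interval −2.87 to −2.36, limma adjusted p = 1.26e-07). A fall of this size or larger on the deposited values was seen in 152 tested named genes (1.29%). Genes not above background in knockout samples may have fallen further than these values show, so this rank is not exact.

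Tff3 read 10.65, 10.58 and 10.63 log2 units in wild-type samples 1 to 3, and 6.18, 6.41 and 6.42 in knockout samples 1 to 3. The probe was bright and even in wild type and not above background on any knockout array, so its change has only a lower bound. The group means were 10.62 ± 0.033 and 6.34 ± 0.13 (SD, n = 3 each). The difference of the deposited values was −4.28 (SE 0.10, 95% interval −4.51 to −4.05, limma adjusted p = 4.32e-09). Set against the lowest signal above background on each knockout array, Tff3 was at least 14.0-fold lower.

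**Figure D1:**
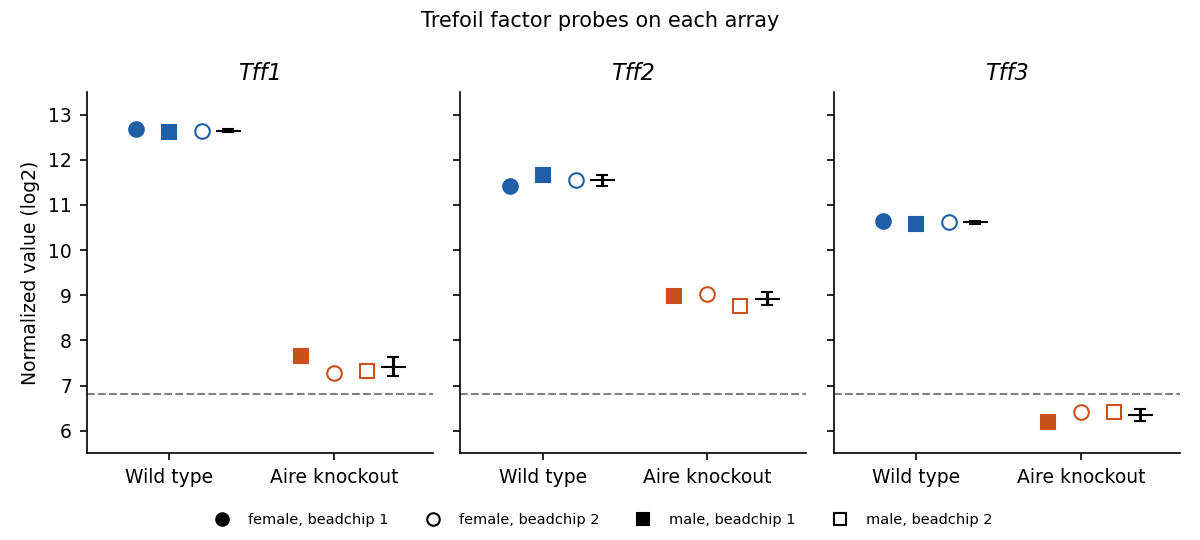
Normalized log2 value of the Tff1, Tff2 and Tff3 probes on each of the 3 wild-type (blue) and 3 Aire knockout (orange) arrays, with the mean and SD of each group beside the points and the mean background bound of about 6.81 as a dashed line. Circles are female and squares male samples, filled for beadchip 1 and open for beadchip 2, and all 3 knockout points of Tff3 lie under the line.

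The trefoil factors did not fall by equal amounts on the deposited scale. Within each array, the difference between 2 probes removes any scaling that acts on all probes of an array alike. Tff1 minus Tff2 was 1.10 ± 0.16 log2 units in wild type and −1.51 ± 0.22 in knockout samples (SD, n = 3 each), so the fall of Tff1 was larger than that of Tff2 by 2.61 log2 units. For Tff2 minus Tff3 only a bound can be had, since Tff3 was not above background in the knockout. The wild-type values were 0.76, 1.08 and 0.93, and the knockout values, with Tff3 set to the lowest signal above background, were 2.17, 2.22 and 1.96, so the fall of Tff3 was larger than that of Tff2 by at least 1.19 log2 units. For both of these pairs the groups did not overlap and the exact two-sided permutation p was 0.1, the smallest that 3 against 3 samples allow. It was 0.1 after adjustment over the 3 possible pairs for Tff1 and Tff2. Whether Tff1 or Tff3 fell further cannot be told from these arrays, because the fall of Tff3 has only a lower bound.

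Each beadchip held both genotypes, and each beadchip or sex alone leaves 1 array of 1 genotype, so its changes are given as values with no test. With beadchip as a block the log2 changes were −5.17 for Tff1, −2.61 for Tff2 and −4.32 for Tff3. Within beadchip 1, which held 2 wild-type samples and 1 knockout sample, they were −4.99, −2.56 and −4.43 in the same order. Within beadchip 2, with 1 and 2 samples, they were −5.34, −2.66 and −4.21. The date label of wild-type samples 1 and 2 is earlier than that of the remaining arrays. Among the later arrays, which hold 1 wild-type sample, the changes were −5.22, −2.63 and −4.29.

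In the females the changes were −5.38 for Tff1, −2.46 for Tff2 and −4.22 for Tff3, and in the males −5.12, −2.79 and −4.28. With genotype in the model, males differed from females by +0.08 log2 units for Tff1 (SE 0.13, adjusted p = 0.973), +0.01 for Tff2 (SE 0.13, adjusted p = 0.997) and −0.08 for Tff3 (SE 0.11, adjusted p = 0.972). The change in males minus the change in females was +0.26 (SE 0.26) for Tff1, −0.33 (SE 0.24) for Tff2 and −0.06 (SE 0.24) for Tff3. None of these passed (adjusted p = 0.9999 for each, limma), in a model that leaves 2 residual degrees of freedom.

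**Figure D2:**
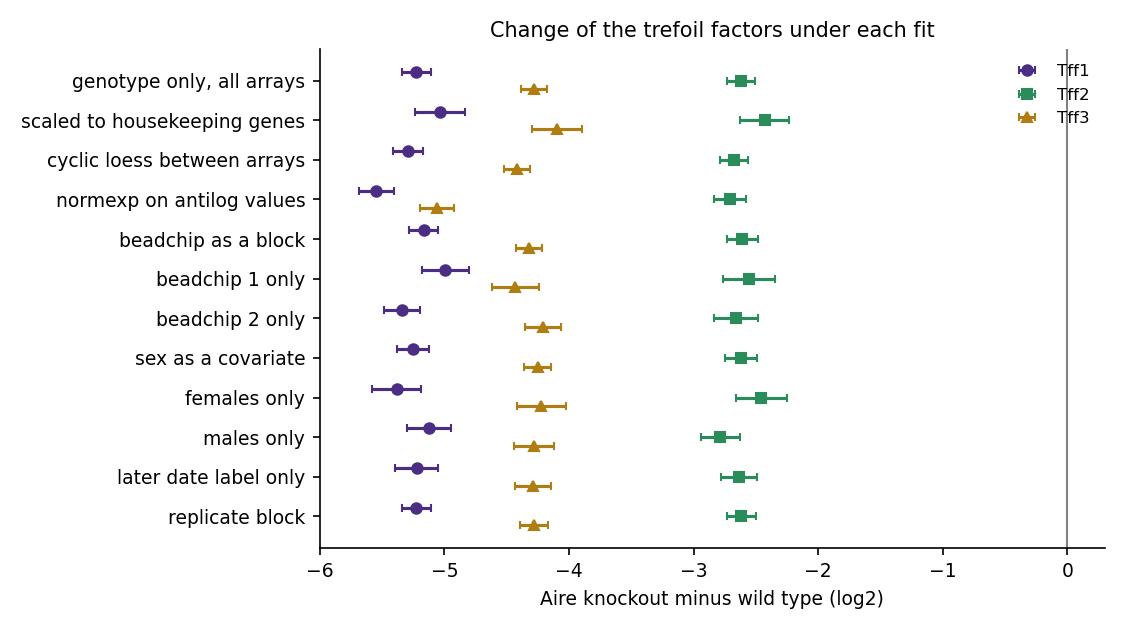
Log2 change (Aire knockout minus wild type) of Tff1, Tff2 and Tff3 with its SE, for the comparison of all 6 arrays and for 11 other settings. Tff1 stays between −5.55 and −4.99, Tff3 between −5.06 and −4.09 and Tff2 between −2.79 and −2.43. The Tff3 values are differences from a knockout signal that was not above background.

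In the mouse genome the trefoil genes lie side by side on chromosome 17, in the RefSeq order Tff3, Tff2, Tff1, with the non-coding gene Gm15318 annotated across part of Tff1. Of the 6 nearest annotated genes on each side, 8 of 12 have a named probe and 5 were tested, of which 2 fell and 2 rose. Among all tested named genes 23.1% fell and 18.3% rose.

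Abcg1, a cholesterol exporter, lies next to Tff3 and read 12.06, 12.02 and 11.89 log2 units in wild type against 12.15, 12.18 and 11.99 in knockout samples. Its change of +0.12 (SE 0.10, adjusted p = 0.377) did not pass, nor did that of a second probe (+0.30, adjusted p = 0.122). Umodl1, beyond it, was dim in wild type (7.01, 7.21 and 7.10) and not above background in knockout samples, at least 1.23-fold lower (adjusted p = 2.72e-04). It passed the filter only through wild type, so it could only be lower.

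On the other side, Tmprss3, a membrane serine protease needed for hearing, lies next to Tff1. It rose, from 6.81, 6.81 and 7.05 log2 units in wild type to 7.66, 7.73 and 7.73 in knockout samples (+0.81, SE 0.10, adjusted p = 2.22e-04). Rsph1, a radial spoke protein of motile cilia, changed by −1.01 (SE 0.19, adjusted p = 0.0022), from 10.49, 9.66 and 10.22 to 9.09, 9.02 and 9.24. Slc37a1, a phosphate-linked sugar phosphate transporter, rose by 0.41 (SE 0.09, adjusted p = 0.00652). Glp1r, Ubash3a and Pde9a, the other neighbours with a named probe, were above background on too few arrays to be tested. Within beadchip 1, with its 1 knockout sample, the change was −0.70 for Umodl1, −0.98 for Rsph1 and +0.34 for Slc37a1, and within beadchip 2, with its 1 wild-type sample, −0.77, −1.09 and +0.47.

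**Figure D3:**
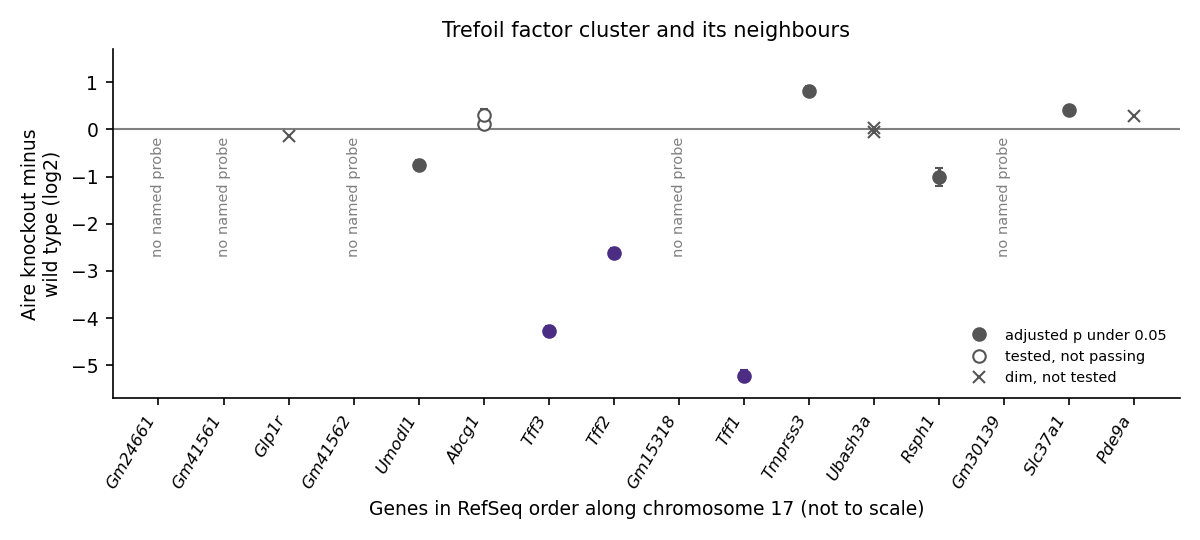
Log2 change (Aire knockout minus wild type) with SE for the trefoil genes (purple) and the 6 genes on each side in RefSeq order. Filled points passed an adjusted p of 0.05, open points did not, crosses were too dim to be tested. Tff1, Tff2 and Tff3 lie between −5.23 and −2.62, and the tested neighbours between −1.01 and +0.81.

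Of 18 genes for proteins made beside trefoil factors in the stomach, all with a named probe, 14 were tested. Of these 9 fell and none rose, against 23.1% and 18.3% of all tested named genes. Of the 9, Gkn1, Gkn2 and Muc5ac passed the filter only through wild type, so they could only be lower. The 23.1% holds such genes too. Among stomach genes above background on all 6 arrays 5 of 10 fell, and the share of all genes under that filter is not given. Chia1 (−0.24), Atp4a (−0.22), Anxa10 (−0.07), Ctse (+0.13) and Muc1 (+0.18) did not pass. The list had a median change of −1.16 with or without genes at their bound, where the median of all tested named genes was +0.02. A called fall of 1 log2 unit or more was seen in 7 of the 14 against 8.16% of tested named genes, and a called rise of that size in none against 1.64%. Pgc, the precursor of a gastric protease, read 11.78, 11.80 and 11.77 log2 units in wild type and 7.48, 7.54 and 7.52 in knockout samples, a change of −4.27 (SE 0.09, adjusted p = 4.14e-09). Muc5ac, the mucin secreted with Tff1, read 10.29, 9.57 and 9.68 against 6.39, 6.45 and 6.45, and was at least 8.20-fold lower (adjusted p = 3.13e-07). A second Muc5ac probe was at least 6.43-fold lower, and 4 further probes named for it were above background on no array.

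Gkn1, a gastrokine of the same surface mucous cells, read 10.28, 10.05 and 10.24 in wild type and 6.77, 6.49 and 6.59 in knockout samples, at least 10.4-fold lower (adjusted p = 2.04e-08). Gkn2, a gastrokine that forms a disulphide-linked pair with the Tff1 peptide, was at least 4.02-fold lower (adjusted p = 1.16e-07). Psca, a surface protein of mucous epithelium, changed by −3.51 (SE 0.12). Muc6, the mucin secreted with Tff2, was above background on no array, at 6.16 to 6.47 over all 6, so no change could be measured.

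Of 16 genes of goblet cells, which make Tff3, 11 were tested. In this list 8 fell and 1 rose, against 23.1% and 18.3% of all tested named genes, with a median of −1.16, or −0.69 with genes at their bound, and 6 had a called fall of 1 log2 unit or more, against 8.16%. Of the 8 that fell, 2 passed the filter only through wild type, so they could only be lower. Among goblet cell genes above background on all 6 arrays 4 of 6 fell, and the share of all genes under that filter is not given. Zg16, a lectin of goblet cell mucus, read 10.65, 10.87 and 11.01 log2 units in wild type and 7.52, 6.81 and 6.82 in knockout samples (−3.79, SE 0.19, adjusted p = 3.13e-07). It was above background on 2 of 3 knockout arrays. Retnlb, a resistin-like peptide of goblet cells, was at least 5.99-fold lower. Spink4, a protease inhibitor of goblet cells, changed by −2.12 (SE 0.14) and Clca1, a secreted metalloprotease of mucus, by −1.92 (SE 0.13).

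Ern2, the endoplasmic reticulum stress sensor of mucous cells, rose by 0.72 (SE 0.17, adjusted p = 0.00819). Fcgbp, a mucus protein that binds the Tff3 peptide, read 10.84, 9.82 and 10.30 in wild type and 10.76, 10.78 and 10.62 in knockout samples, so the groups overlapped, and its change of +0.40 (SE 0.21, adjusted p = 0.159) did not pass. Muc2 has no named probe.

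Microfold and secretory cells of the medulla are another setting in which Tff2 is used as a marker. Of the 11 other genes in that list, all tested, 4 fell and 1 rose (median −0.24), where 23.1% of all tested named genes fell and 18.3% rose. Lactotransferrin (Ltf) changed by −3.89 (SE 0.29), Gp2, the receptor by which microfold cells take up bacteria, by −2.06 (SE 0.15), and the chemokines Ccl9 by −1.76 (SE 0.13) and Ccl6 by −0.94 (SE 0.14). Ltf was above background on 2 of 3 knockout arrays and Ccl6 on 1 of 3. Il1rn, which blocks the interleukin-1 receptor, rose by 1.53 (SE 0.24). Spib, the transcription factor of microfold cells, read 12.26 to 12.72 in wild type and 12.61 to 12.78 in knockout samples and did not pass (+0.18, SE 0.13, adjusted p = 0.283).

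**Figure D4:**
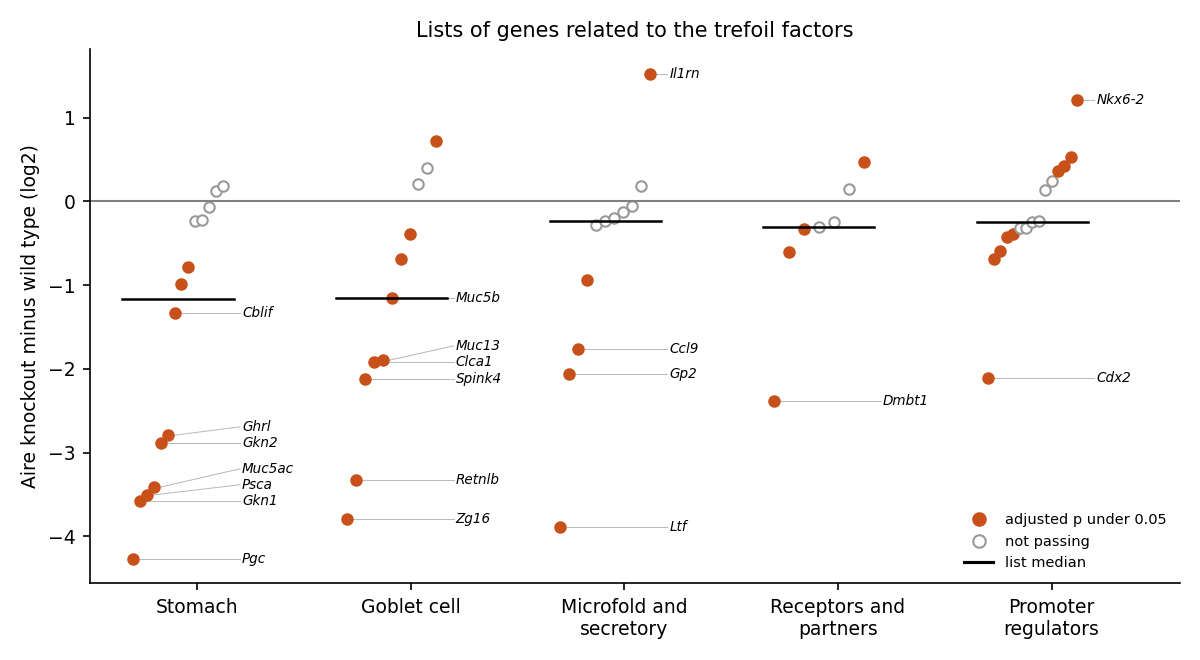
Log2 change (Aire knockout minus wild type) of each tested gene in 5 lists related to the trefoil factors, with the list median as a black line. Orange points passed an adjusted p of 0.05, and names are given where a called change was at least 1. The stomach and goblet cell medians are both −1.16 and the other 3 lie between −0.31 and −0.24.

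Of 9 genes listed as receptors or signalling partners of trefoil factors, 7 were tested, of which 3 fell and 1 rose (median −0.31), where 23.1% of all tested named genes fell and 18.3% rose. With housekeeping scaling 1 of the 7 fell, where 2001 of all 19420 tested probes were called lower, rather than 3446. Dmbt1, a mucosal scavenger protein that binds trefoil peptides, read 9.38, 9.27 and 9.23 log2 units in wild type and 7.01, 6.80 and 6.92 in knockout samples (−2.38, SE 0.10, adjusted p = 1.18e-07). It was above background on 2 of 3 knockout arrays. Cxcr4, a chemokine receptor reported to respond to Tff2, changed by −0.33 (SE 0.11, adjusted p = 0.0428), and with housekeeping scaling this was −0.15 and did not pass. The tetraspanin Cd151 changed by −0.61 (SE 0.16, adjusted p = 0.0148), but its other 2 tested probes, at +0.07 and −0.38, did not pass. The call of Cd151 ended with housekeeping scaling, with the date label as a covariate, and without wild-type replicate 2 or knockout replicate 1 or 2. The gene that rose was Bmi1, a Polycomb protein and not a receptor, by 0.47 (SE 0.16, adjusted p = 0.0443). The calls of Cxcr4 and Bmi1 both ended with dim probes kept, with beadchip as a block and with the date label as a covariate. Each also ended when knockout replicate 1 or 2 was left out, and in further alternatives. Ackr3 and Lingo2, other proposed receptors of trefoil factors, were above background on no array.

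Of 22 transcription factors described as acting on trefoil promoters in other tissues, 15 were tested, of which 5 fell and 4 rose (median −0.24). These counts compare with 23.1% and 18.3% of all tested named genes. Cdx2, the regulator of intestinal identity, read 8.92, 8.82 and 8.76 log2 units in wild type and 6.85, 6.61 and 6.72 in knockout samples, above background on 1 of 3 knockout arrays (−2.11, SE 0.10, adjusted p = 3.04e-07). Spdef, which drives goblet cell maturation, changed by −0.69 (SE 0.12, adjusted p = 0.00185) and was also above background on 1 of 3 knockout arrays. Klf4 changed by −0.60 (SE 0.14) and Cebpb by −0.42 (SE 0.12). The call of Cebpb ended with the date label as a covariate and without knockout replicate 2. Of 2 other Klf4 probes 1 fell (−0.53, adjusted p = 0.0218) and 1 did not pass (−0.09).

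Those that rose were Nkx6-2, a homeobox factor (+1.22, SE 0.15, adjusted p = 1.89e-04), Usf2 (+0.53, SE 0.15), Cdx1 (+0.42, SE 0.13) and Esr1 (+0.36, SE 0.10). Esr1 is the oestrogen receptor through which TFF1 is known to respond to oestrogen in human breast cancer cells. It read 6.82, 6.78 and 6.83 in wild type, above background on 2 of 3 arrays, and 7.22, 7.22 and 7.07 in knockout samples. With beadchip as a block the calls of Usf2 (+0.48, adjusted p = 0.0515) and Cdx1 (+0.36, adjusted p = 0.0591) ended, and Usf2 did not pass with cyclic loess (+0.39, adjusted p = 0.0740). The calls of Usf2, Cdx1 and Esr1 all ended with the date label as a covariate and without knockout replicate 2. That of Esr1 also ended without knockout replicate 1. That of Cdx1 also ended with sex as a covariate, and without wild-type replicate 1 or knockout replicate 3. With housekeeping scaling 2 of these factors fell and Klf4 and Cebpb no longer passed. The factors Foxa2, Sox2, Pdx1, Nkx6-3, Runx1, Runx3 and Hif1a were above background on no array.

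The genes nearest in profile to each trefoil factor came from several organs. Likeness was the root mean square difference between profiles over the 6 arrays, each centred on its own mean, among all tested named genes. It was chosen by values, and since genotype separates the arrays it mostly orders genes by the size of their fall. Of the 5 nearest genes, 4 for Tff1, 2 for Tff2 and 4 for Tff3 were not above background on any knockout array, nor was Tff3 itself, so these likenesses hold for the deposited values and not for the true size of a fall. Nearest to Tff1 were Dcpp1, a salivary gland protein (0.11 log2 units), Mpo, the peroxidase of neutrophils (0.19), the gut hormone genes Pyy (0.22) and Nts (0.22), and Defa20, a defensin of Paneth cells (0.23). Nearest to Tff2 were Fga, a fibrinogen chain made in liver (0.086), the galectin Lgals2 (0.095), the apolipoprotein Apoc4 (0.10), the aldehyde oxidase Aox3 (0.11) and Bdh2 (0.12).

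Nearest to Tff3 were Pgc (0.069), the protease Prss34 (0.086), the neuronal calcium-binding protein Calb2 (0.089), the neuropeptide galanin (Gal, 0.10) and Wap, the whey acidic protein of milk (0.12). The difference between Tff1 and Tff2, both above background on all arrays, was 1.31. With Pearson correlation in place of the difference, 0 of 5 genes were shared for Tff1, 1 of 5 for Tff2 and 1 of 5 for Tff3, so the names depend on the measure.

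**Figure D5:**
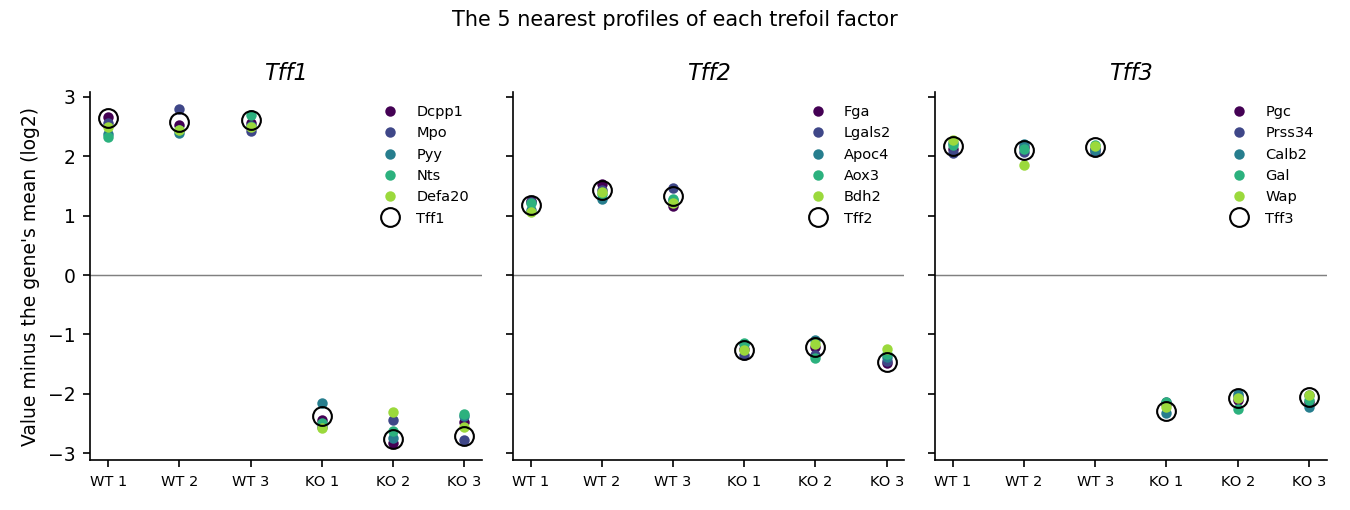
Log2 value minus the gene's own mean over the 6 arrays, for each trefoil factor (open black circles) and the 5 tested named genes with the smallest root mean square difference from it (coloured points). WT and KO are wild-type and Aire knockout arrays, and the nearest genes lie within 0.23 log2 units of Tff1, 0.12 of Tff2 and 0.12 of Tff3 by that measure.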

How the data were processed

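Total RNA of 6 samples was hybridised to Illumina bead arrays. The authors deposited normalized log2 values with 1 value per probe and array. BeadStudio and lumi are listed in the submitters' processing notes. The sources used here do not state the background correction, transform, normalization or genome build. A further 24 value columns, in tables whose headings could not be matched to a sample label, were not used. Gene symbols came from the platform annotation, and the gene order from RefSeq (GRCm38). Sequences were not used here.

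A probe was tested when it exceeded the mode plus 3 SD of the values below the mode on at least 3 arrays. Each gene was represented by its brightest tested probe. The genotype test was limma 3.58.1 (lmFit and eBayes, R 4.3.3), two-sided, with Benjamini-Hochberg adjustment across all 19420 tested probes. The fit was tested on simulated data. Trefoil pairs were compared by exact permutation over arrays.

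The members, the gene lists and the alternatives were chosen with earlier results of these data known. Genes were named by a fixed rule: the trefoil probes, Aire, 6 neighbours on each side, up to 4 called genes per list with the largest changes, list members that rose, 9 stated partners and the 5 nearest profiles. Spib, Ccl6, Cebpb, the stomach genes that did not pass, and the markers and regulators named for their level were named after their values were seen. Same-numbered samples did not deviate together (correlations of 0.20, −0.060 and −0.016), so the numbers were not taken as pairs. The number of arrays limits the precision.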

Additional observations from a re-analysis of the deposited data

How the results depend on the processing

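Of 26 alternatives 5 (each beadchip, each sex, later arrays) leave 1 array in a group, which is then assumed to vary like the others. Counts of calls under these 5 are therefore not given. Under the other 21 alternatives Tff1 and Tff2 kept their direction and call, as did Tff3 under the 20 that could test it, with adjusted p-values up to 1.02e-06, 1.65e-05 and 1.03e-06. Over all alternatives the changes ranged from −5.55 to −4.99 for Tff1, −2.79 to −2.43 for Tff2 and −5.06 to −4.09 for Tff3. With the replicate number as a block the trefoil changes were −5.23, −2.62 and −4.28 with every call kept, and 3447 probes were lower and 3968 higher. Leaving out each array gave −5.34 to −5.15, −2.68 to −2.54 and −4.32 to −4.20.

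Over all tested probes the median change was 0.10, and 0.29 with housekeeping scaling. Calls of probes lower than the 3446 reported were 2001 with housekeeping scaling, 1885 among probes above background on all 6 arrays (fewer probes tested), 1467 within beadchip 1, 1706 within beadchip 2, 1686 in females, 2242 with the date label as a covariate and 1198 with a log2 change of at least 1. Calls of probes higher were 2641 with cyclic loess, 515 and 905 within beadchips 1 and 2, 724 in females, 1965 in males, 2297 among later arrays, 1653 with the date label, 2557 with probes averaged by gene and 334 at a change of at least 1. Leaving out single arrays gave 2759 to 3464 lower and 2457 to 4111 higher, the fewest higher without knockout replicate 2 and 2603 without knockout replicate 1.

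Among probes above background on all 6 arrays, 5 of 10 stomach, 4 of 6 goblet, 2 of 9 microfold, 1 of 6 receptor and 3 of 11 regulator genes fell. The share of all named genes under each setting is not given, so these counts cannot be set against a general rate. Of the receptors 1 fell with housekeeping scaling, with the date label and at a change of at least 1. It was 1 to 3 when single arrays were left out, with 1 without wild-type replicate 2 or knockout replicates 1 or 2. Of the regulators 2 fell with housekeeping scaling and 1 at a change of at least 1. The count was 3 to 6 when arrays were left out, with 3 without knockout replicate 2, where 1 rose in place of 4. Differences between the trefoil changes were also followed under alternatives chosen after seeing the data. Tff1 minus Tff2 was −2.84 after normexp, −2.93 in females and −2.34 in males, and −2.70 to −2.49 with arrays left out. Those with Tff3 are deposited differences from a knockout signal not above background. Tff1 minus Tff3 was −0.94, −0.49 after normexp, −0.56 within beadchip 1, −1.42 with Tff3 at its bound and −1.14 to −0.84 with arrays left out. Tff2 minus Tff3 was 1.66, 2.35 after normexp, 1.87 within beadchip 1, 1.19 with Tff3 at its bound and 1.56 to 1.78 with arrays left out. The cause of these shifts was not tested. Of 62 related and neighbouring genes none turned direction with a call.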
